A study of Mus musculus with 9 samples.

Results

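The 9 genes described here mark the cells that wrap blood vessels: 5 genes of the smooth muscle contractile apparatus (Acta2, Tagln, Myh11, Myl9 and Cnn1) and 4 genes of pericytes (Rgs5, Pdgfrb, Cspg4 and Kcnj8). They were taken by name, through their Ensembl identifiers, and make up 9 of the 52636 genes in the count table. Their values were followed in single cells of mouse thyroid, across the authors' cell labels and across 3 antibody treatments that block or spare Notch signalling. All 9 were detected, and all 9 had their highest level in the cells labelled SM.

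Smooth muscle cells ring arteries, arterioles and larger veins and contract through myosin sliding on actin, while pericytes sit singly on capillaries under the same basement membrane as the endothelium. Both are called mural cells, and they are recruited to the endothelium by platelet-derived growth factor B acting on its receptor Pdgfrb. Notch ligands on endothelial cells, Jag1 among them, signal to Notch receptors on mural cells and are known to promote the contractile gene programme.

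Thyroids came from C57BL/6 males aged 10 to 14 weeks in the protocol and 10 to 12 weeks in the design text, each mouse having received 1 intraperitoneal dose of antibody, with 7 days given for every group. RW animals, the controls, received an antibody to ragweed at 40 mg/kg. aJ1aJ2 animals received antibodies to the ligands Jag1 and Jag2 at 20 mg/kg each. aN1aN2 animals received antibodies to the receptors Notch1 at 5 mg/kg and Notch2 at 10 mg/kg. Each group had 3 samples, each the pooled thyroids of 6 animals, so the sample is the replicate and the animals within it cannot be separated. The labels give no genetic change in any group and no animal without an antibody.

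The table held 10186 cells from the 9 samples, 583 to 1805 per sample, with 16 labels and totals of 500 to 131347 unique molecular identifiers (UMIs, each a counted transcript molecule) per cell. Median depth was lowest in the 3 aN1aN2 samples (2098 to 2237 UMIs per cell, against 2823 to 4149 in the other 6), and those samples alone came from the last of 3 ranges of sample numbers, so that receptor blockade and this range cannot be told apart. RW 3 and aJ1aJ2 1 share the first range, and RW 1, RW 2, aJ1aJ2 3 and aJ1aJ2 4 the second. SM cells numbered 248, but RW 1 and RW 2 held only 8 and 5 of them. The 15 cell barcodes that occurred in more than 1 library included no SM cell. Levels are given as CPM, a gene's UMIs scaled to the total UMIs of the cells that were summed. UMIs are counted at the 3' end of transcripts, so values are compared between cells or samples for 1 gene and not between genes.

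The labels were checked against marker genes. SM carried UMIs of all 8 smooth muscle and all 8 pericyte markers, summing to 28073 and 6444 CPM, beside 2393 CPM of fibroblast and 693 CPM of endothelial markers. These lists include the 9 genes themselves and so are no independent check. Of the 7 markers that are not among the 9, Lmod1 (771 CPM in SM), Actg2 (92.3), Abcc9 (473), Higd1b (344), Cox4i2 (265) and Notch3 (712) had their highest level in SM, and Des had its highest in Th3, at 909.9 against 353 CPM. EC1, EC2, EC3 and EC4 carried all 8 endothelial markers, and EC3 also held 1492 CPM of smooth muscle markers, members included. F held 73984 CPM of fibroblast markers. Of the skeletal muscle marker UMIs in SM, 82.0% came from 1 cell with fewer than 3 of the 9 genes.

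All 9 are protein-coding genes, and positions are on the GRCm38 assembly. Cnn1 (chromosome 9, 22099216 to 22109630, plus strand) encodes calponin 1, which binds actin and restrains the myosin ATPase, and Myl9 (chromosome 2, 156775420 to 156781658, plus strand) encodes a regulatory light chain of smooth muscle myosin. Rgs5 (chromosome 1, 169655501 to 169695813, plus strand) encodes a regulator of G-protein signalling, and Kcnj8 (chromosome 6, 142564837 to 142571614, minus strand) the pore of a potassium channel gated by ATP. Acta2 is on chromosome 19 (34241090 to 34255590, minus strand), Tagln on chromosome 9 (45929619 to 45936058, minus strand), Myh11 on chromosome 16 (14194535 to 14291372, minus strand) and Cspg4 on chromosome 9 (56865033 to 56899870, plus strand).

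Sequence upstream of the start site is shown for 4 members, Cnn1 and Kcnj8 because the SM cells are sorted by them below, Myl9 because it alone of the 6 searched held a CArG box, and Rgs5 because it had the largest called change between treatments. RefSeq promoters of GRCm38.p6 were found for 6 of the 9 members (Acta2, Myl9, Cnn1, Rgs5, Cspg4 and Kcnj8), and in the stretches printed here bases that GENCODE gives as transcribed were left out. Each line runs 5′ to 3′ on the gene's own strand, and capitals mark the CArG box.
Cnn1, chr9:22099003-22099215, plus strand: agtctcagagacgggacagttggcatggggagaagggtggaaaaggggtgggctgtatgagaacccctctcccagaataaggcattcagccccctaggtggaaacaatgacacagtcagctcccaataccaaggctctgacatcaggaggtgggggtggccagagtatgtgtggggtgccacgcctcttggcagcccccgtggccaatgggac
Myl9, chr2:156775214-156775419, plus strand: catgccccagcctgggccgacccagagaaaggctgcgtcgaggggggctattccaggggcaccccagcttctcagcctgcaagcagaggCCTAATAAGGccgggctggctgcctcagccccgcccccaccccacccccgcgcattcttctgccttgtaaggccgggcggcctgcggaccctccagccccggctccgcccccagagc
Rgs5, chr1:169655251-169655500, plus strand: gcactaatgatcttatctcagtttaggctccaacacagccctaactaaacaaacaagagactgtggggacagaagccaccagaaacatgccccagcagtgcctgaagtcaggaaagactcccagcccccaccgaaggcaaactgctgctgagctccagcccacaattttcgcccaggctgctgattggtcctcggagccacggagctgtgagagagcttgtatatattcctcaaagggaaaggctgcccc
Kcnj8, chr6:142571615-142571864, minus strand: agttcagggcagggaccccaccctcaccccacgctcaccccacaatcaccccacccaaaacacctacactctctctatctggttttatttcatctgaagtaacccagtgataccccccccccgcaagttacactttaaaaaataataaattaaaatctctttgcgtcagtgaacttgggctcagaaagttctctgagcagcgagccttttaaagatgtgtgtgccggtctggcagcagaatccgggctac

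The CArG box is the element bound by serum response factor, a transcription factor of contractile genes. Searched on both strands in the 250 bases before the RefSeq start, it was present in 1 of the 6 members' promoters, at 161 bases before the start of Myl9, and in 1.467% of 32851 promoters (482). Tagln, Myh11 and Pdgfrb were not searched, and most of the window of Acta2 lies inside its GENCODE transcript. TATAAA was in none of the 6 and in 12.37% of all promoters. TGGGAA, the core of the site bound by the Notch effector RBPJ, was in Acta2 alone of the 6 and in 21.59% of all promoters. Its match lay 27 bases before the RefSeq start of Acta2, where GENCODE places the start 217 bases upstream of RefSeq's, and so inside the GENCODE transcript. The shown stretches had a GC content of 71.4% for Myl9, 58.7% for Cnn1, 53.6% for Rgs5 and 49.2% for Kcnj8. TATAAA can lie inside a CArG box, and a match is a run of letters, not a shown site of binding.

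SM held 62.2% of all UMIs of the 9 genes, followed by EC3 with 18.2% and EC2 with 9.45%. Acta2, smooth muscle alpha-actin, reached 11339 CPM in SM and 549 CPM in EC3, the next label, a ratio of 20.7. Tagln, the actin-binding protein transgelin, reached 7833 CPM in SM and 441 CPM in EC3. The other contractile genes also had EC3 as their next label: Myh11, the smooth muscle myosin heavy chain, at 2859.8 against 178 CPM, and Myl9 at 4578 against 227 CPM. Cnn1 was the most restricted, with 192 UMIs in SM (246 CPM), 3 in EC3 and at most 2 in any other label. It had no UMI in 1603 EC1 cells, which allows a share of cells with a UMI of up to 0.187%, nor in 538 F cells, which allows up to 0.558%. These limits are for detection, which moves with depth: in SM it fell to 4.26% of cells thinned to 500 UMIs, from 18.5% at full depth.

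The pericyte genes were shared with other labels to a greater extent, and with different ones. Rgs5 reached 3387 CPM in SM, 1694 CPM in EC2, 1043 CPM in EC3 and 85.4 CPM in EC1. Kcnj8 reached 268 CPM in SM, 103 CPM in EC2 and 72.1 CPM in F. Pdgfrb (chromosome 18, 61045150 to 61085061, plus strand) had F as its next label, at 129.7 against 778 CPM, and 45.7% of F cells held a UMI of it. Cspg4, the proteoglycan NG2, had S as its next label, at 63.9 against 217 CPM. Across 16 labels these are descriptions, since the genes may have served to define SM.

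**Figure D1:**
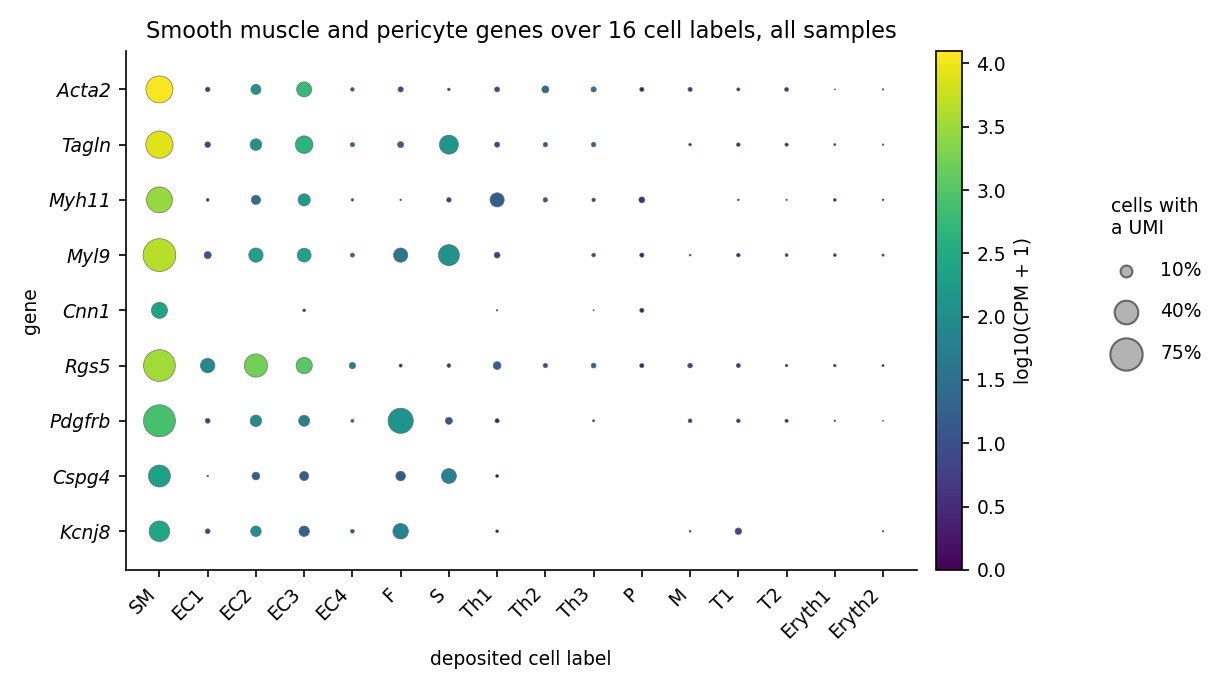
Level and detection of the 9 genes in each of the 16 deposited cell labels, all samples summed; colour is log10(CPM + 1) and circle area is the percent of cells with at least 1 UMI. The 5 contractile genes are high in SM and next in EC3, Rgs5 extends to EC2, EC3 and EC1, and Pdgfrb and Kcnj8 extend to F.

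Outside SM the detection of a gene was set against the erythroid labels, which should lack these genes and so show the background from free RNA. In Eryth1, with a median of 1682 UMIs per cell, close to the 1704 of SM, 0 to 0.602% of cells held a UMI of any of the 9 genes. In Eryth2, at a median of 7944 UMIs, the share was 0 to 0.366%. Other blood labels ran higher, up to 1.59% in M (Rgs5), 3.18% in T1 (Kcnj8) and 1.12% in T2 (Acta2). All lie below Pdgfrb in F (45.7% of cells), Kcnj8 in F (17.3%), Myl9 in F (14.7%), Rgs5 in EC2 (38.6%) and Rgs5 in EC1 (15.1%). This comparison bears on free RNA and not on droplets that held 2 cells. In EC2, 52 cells with at least 3 of the 9 genes held 2123 of the label's 2658 Rgs5 UMIs. Their median depth was 8809.5 UMIs, against 2409 in the other EC2 cells.

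S, in which no Kcnj8 UMI was found (0 of 193 cells, which allows a share of cells with a UMI of up to 1.55%), held Tagln in 25.9%, Myl9 in 31.6% and Cspg4 in 16.1% of cells, but Acta2 in 0.518%. In the deep Th1 cells (median 12550.0 UMIs), Myh11 was found in 14.5% of cells at 15.3 CPM while Acta2 was found in 1.88%. In EC2 Acta2 was found in 7.33%, Tagln in 9.78%, Myh11 in 6.11% and Myl9 in 14.7% of cells.

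Within SM, Myl9 was detected in 77.4% of cells, Pdgfrb in 73.8% and Rgs5 in 72.6%. Tagln was detected in 53.2%, Acta2 in 52.4% and Myh11 in 48.4%, and the rarest were Cspg4 in 34.7%, Kcnj8 in 30.6% and Cnn1 in 18.5%. Both kinds of gene were found together in 192 of the 248 cells. Contractile genes alone were found in 13, pericyte genes alone in 34, none of the 9 in 9, and all 9 in 0 cells.

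The contractile genes were detected as a nearly nested series. Cells with Cnn1 were deep, with medians of 6115 UMIs without Kcnj8 and 7318 with it, against 1065 in SM cells with neither gene. All 46 cells with Cnn1 also held Acta2, Tagln, Myh11 and Myl9 (95% exact interval of the share 92.3 to 100%). Of the 120 cells with Myh11, 111 held Acta2. Cells with Cnn1 held Rgs5 in 13, Kcnj8 in 5, and Pdgfrb and Cspg4 in 30 cases each.

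Kcnj8 had the opposite company. Of its 76 cells, 71 held Pdgfrb, 70 Rgs5, 60 Myl9, 29 Acta2 and 20 Myh11. Thinning every cell to 2000 UMIs, which left out 137 shallower cells of the 248, kept this order: 95.4% of Kcnj8 cells held Rgs5 and 29.9% held Myh11, and 20.7% of Cnn1 cells held Rgs5. Pdgfrb, Cspg4 and Myl9 were found with both.

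**Figure D2:**
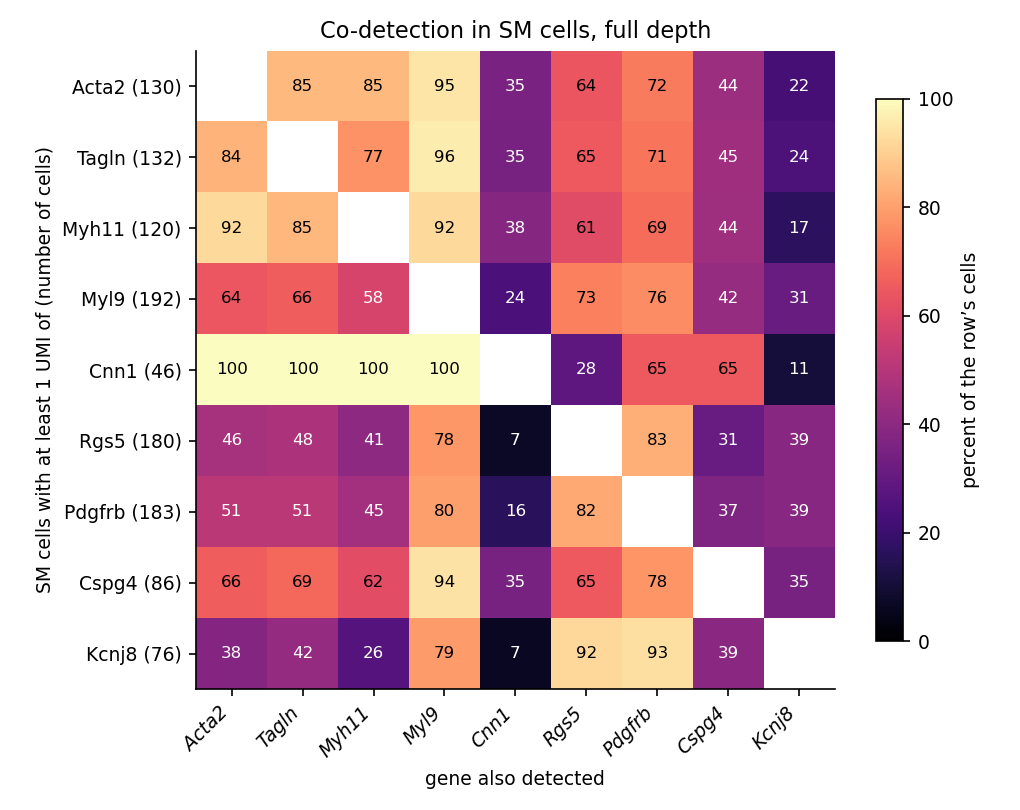
Percent of the SM cells holding the row's gene that also held the column's gene, at full depth; numbers in brackets are the cells holding the row's gene, of 248. All 46 Cnn1 cells held the other 4 contractile genes, and the Kcnj8 row is high for Rgs5 and Pdgfrb and low for Cnn1 and Myh11.

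Sorting the SM cells by these 2 genes gave 41 cells with Cnn1 and no Kcnj8, 71 with Kcnj8 and no Cnn1, 5 with both and 131 with neither. Since this choice uses the members' own counts, the values that follow are descriptions. Cnn1 cells carried a median of 322 contractile and 3 pericyte UMIs, and Kcnj8 cells a median of 3 contractile and 18 pericyte UMIs. They also differed in depth, with medians of 6115 and 1792 UMIs per cell. Among cells with at least 2000 UMIs, Acta2 was at 18532 CPM in 39 Cnn1 cells and 2656 CPM in 34 Kcnj8 cells, and Rgs5 at 200.2 and 7893 CPM.

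By sample these values rest on few cells, with 1 Cnn1 cell in each of RW 2 and aJ1aJ2 1 and 2 Kcnj8 cells in each of RW 1 and RW 2. In 9 of 9 samples Acta2, Tagln, Myh11 and Myl9 were higher in the Cnn1 cells, and Rgs5 and Pdgfrb were higher in the Kcnj8 cells. Cspg4 was higher in the Kcnj8 cells in 6 of 9 samples and did not part the 2 kinds. Among genes the sorting did not use, Abcc9, the partner subunit of the Kcnj8 channel, was at 1339 CPM in Kcnj8 cells and 10.7 CPM in Cnn1 cells, and was higher in the former in 9 of 9 samples. Pln, phospholamban, which restrains calcium uptake into the muscle cell's stores, was at 942.8 CPM in Cnn1 cells. It had no UMI in the 71 Kcnj8 cells, which allows a share of cells with a UMI of up to 4.23% at their lower depth. Of the 18 other pericyte genes, 7 were higher in the Kcnj8 cells in every sample, among them Vtn and Steap4, and 15 in more samples than not. P2ry14, Mcam and Rgs4 were higher in the Cnn1 cells in 5 of 9 samples each. Of the 18 other contractile genes, 7 were higher in the Cnn1 cells in every sample, among them Mylk and Tpm1. In all, 17 were higher in the Cnn1 cells in more samples than in the Kcnj8 cells. For Actg2 this was 4 samples against 1, with 4 ties. Des was higher in the Kcnj8 cells in 6 of 9.

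**Figure D3:**
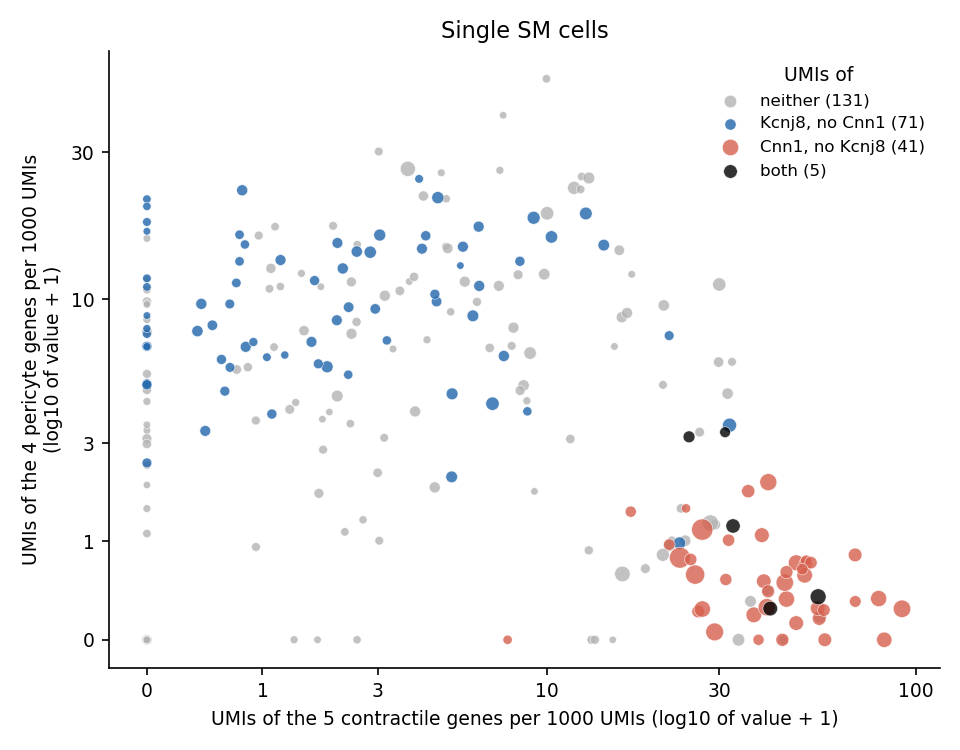
Each of the 248 SM cells by its UMIs of the 5 contractile genes (horizontal) and the 4 pericyte genes (vertical) per 1000 UMIs, on axes of log10(value + 1); larger points are cells with more UMIs, and colours give the cells with Cnn1, Kcnj8, both or neither. Cnn1 cells lie at the lower right and Kcnj8 cells at the left and top, with cells of neither gene spread between.

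Over 90% of a cell's member UMIs were contractile in 68 SM cells and over 90% pericyte in 50, and 121 cells lay between. By likeness of pattern over the 16 labels (Pearson r of log2(CPM + 1) among 11984 genes, a description), the genes closest to Myh11 were Slc38a11 (r = 0.926), Ano1, Ephx3, Olfr558 and Casq2. Those closest to Rgs5 were Higd1b (r = 0.956), Fabp4, Rasd1, Cldn5 and H2-M9. Fabp4 and Cldn5, an endothelial tight junction gene, were higher in EC2 than in SM (Cldn5 at 1029 against 133 CPM). Of the other genes of each programme, 16 of 18 contractile and 17 of 18 pericyte genes had their highest level in SM, against 12 of 24 mural signalling genes.

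The share of SM among all cells was compared first between the antibody groups. It was 0.641, 0.380 and 2.95% in RW 1, 2 and 3, 3.09, 1.94 and 3.84% in aJ1aJ2 1, 3 and 4, and 2.87, 3.95 and 3.78% in aN1aN2 1, 2 and 3. The groups overlapped, since RW 3 lay among the treated samples while RW 1 and RW 2 lay below all of them. The means were 1.32 ± 1.41%, 2.96 ± 0.957% and 3.53 ± 0.586% (SD, n = 3 each), and the exact two-sided permutation test gave p = 0.2 for each treated group against RW, in a design of 3 against 3 whose smallest possible p is 0.1 and which therefore cannot pass 0.05. Within the second range of sample numbers the 2 RW samples were below the 2 aJ1aJ2 samples, and within the first, RW 3 and aJ1aJ2 1 were at 2.95 and 3.09%.

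Counting cells of any label with at least 3 of the 9 genes instead, a choice made after seeing the data, gave 382 cells, of which 208 were labelled SM, 52 EC2, 47 EC3, 33 F and 21 EC1. Their share was 3.21 ± 1.91% in RW, 4.43 ± 1.03% in aJ1aJ2 and 3.85 ± 0.606% in aN1aN2 (SD, n = 3 each), with exact permutation p of 0.4 and 0.6 against RW. With every cell thinned to 500 UMIs the aN1aN2 minus aJ1aJ2 difference turned from -0.575 to 0.696 percentage points (exact permutation p = 0.1, the smallest possible). In RW they included 28 of the 134 EC3 cells.

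In SM the receptor and ligand groups could be compared with 3 samples each, whereas RW had 1 sample with at least 10 SM cells. Kcnj8 stood at 383, 420.5 and 456 CPM in aJ1aJ2 and at 199, 188 and 67.7 CPM in aN1aN2. The ligand-blocked samples were tightly grouped and all above the receptor-blocked ones. With the minimum lowered to 5 cells, and CPM scaled as in that fit, RW 1, 2 and 3 were at 97.5, 1064 and 218. On that scale aJ1aJ2 was at 546 to 726 and aN1aN2 at 92.1 to 272. RW 1 and RW 3 thus lay in the aN1aN2 range, and RW 2, with 5 cells, lay above aJ1aJ2. Kcnj8 was lower by 1.56 on the log2 scale in aN1aN2 than in aJ1aJ2 (SE 0.35, adjusted p = 0.0150, quasi-likelihood test of edgeR, adjusted by Benjamini-Hochberg over all genes). It was the only call among the 9 genes, all of which passed the filter, beside 98 calls among 2448 genes tested (4%, with 2.25% lower). The other 8 had log2 differences of -1.38 (Cnn1, adjusted p = 0.102) to 0.36 (Myh11, adjusted p = 0.490). The call was lost with DESeq2 (adjusted p = 0.0551), without aN1aN2 3 (0.0960) and when the 2 small RW samples entered the fit (0.130), and Cnn1 was called without aJ1aJ2 3 (log2 -1.71, adjusted p = 0.0184).

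Of 18 other pericyte genes, 17 were tested and Abcc9 was the 1 called, lower in aN1aN2 (log2 change -1.12, SE 0.29, adjusted p = 0.0310). On the scale of the 5-cell fit Abcc9 was at 139, 900 and 317 CPM in RW 1, 2 and 3. It was at 391 to 762 CPM in aN1aN2 and 977 to 1389 CPM in aJ1aJ2 there, so that RW overlapped aN1aN2. Over the 17 genes the median difference was 0.29, in the other direction, and 10 had an unadjusted p under 0.05, as did 17.6% of all genes tested. The products of Abcc9 and Kcnj8 form 1 channel. None of 17 other contractile genes tested was called with edgeR, 3 having an unadjusted p under 0.05, and their median difference was 0.03. Of the mural signalling genes Eng, a co-receptor for TGF-beta, was lower in aN1aN2 than in aJ1aJ2 by 2.27 (log2, SE 0.47, adjusted p = 0.00905). Eng was highest in the endothelial label EC4, at 1206 CPM against 200.1 CPM in SM. Endothelial markers summed to 67.7 to 799 CPM in the aN1aN2 SM sums and 312 to 1354 CPM in aJ1aJ2, erythroid markers to 967 to 2267 and 251 to 456 CPM, and their part in these results was not tested.

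**Figure D4:**
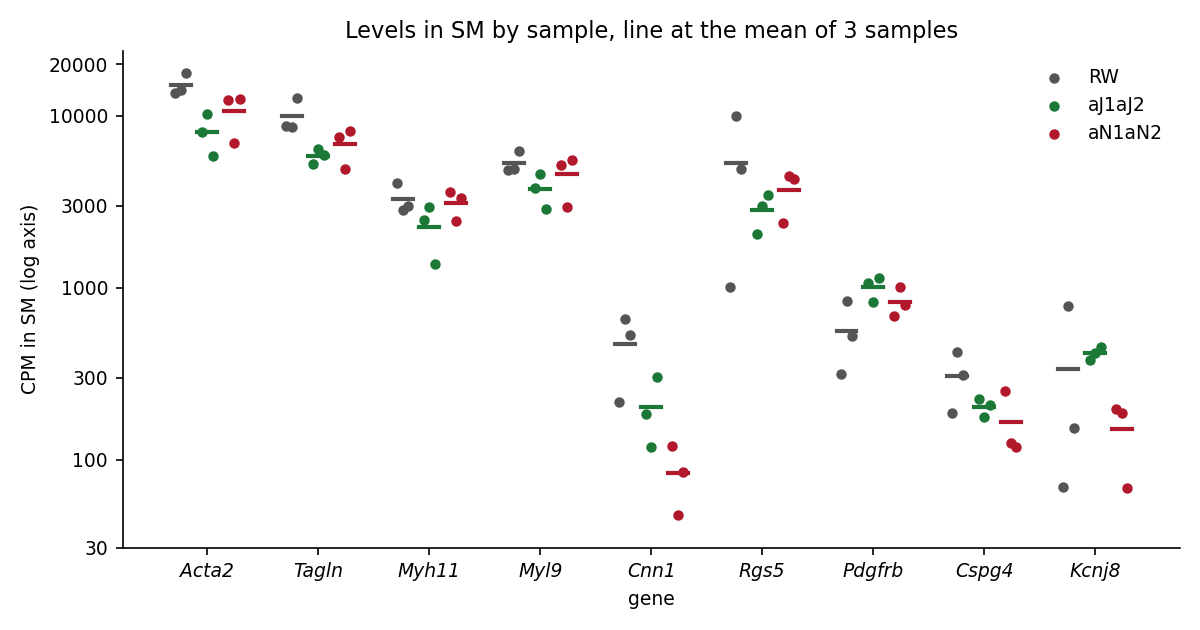
Level of each gene in SM by sample, in CPM on a log axis; points are the 3 samples of each group and lines their means. Kcnj8 is lower in all 3 aN1aN2 samples than in the aJ1aJ2 samples, Cnn1 is lower in aN1aN2 than in RW, and the RW points for Rgs5 and Kcnj8 spread widely.

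To set SM against the control, the minimum was lowered to 5 cells, so that RW entered with 8, 5 and 31 cells. Cnn1 was at 217, 664 and 529.6 CPM in RW, at 185, 118 and 304 CPM in aJ1aJ2 and at 119, 47.0 and 84.6 CPM in aN1aN2. All receptor-blocked samples lay below all control samples, and the ligand-blocked ones overlapped both groups. Cnn1 fell by 2.35 on the log2 scale in aN1aN2 relative to RW (SE 0.52, adjusted p = 0.0182, edgeR), the single member called beside 59 of 1671 genes (3.53%, with 1.2% lower). It rested on 109 UMIs in RW and 17 in aN1aN2, and the adjusted p was 0.121 without RW 3, 0.0547 without aN1aN2 1, 0.0928 without aN1aN2 2 and 0.0724 without aN1aN2 3. Erythroid markers in SM summed to 118 to 302 CPM in RW and 967 to 2267 CPM in aN1aN2, and smooth muscle markers, Cnn1 included, to 31886 to 41383 and 18179 to 30872 CPM, and their part in the result was not tested.

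The other contractile genes did not pass the test in SM. Acta2 was at 13547, 14131 and 17768 CPM in RW, at 8102, 10268 and 5855 CPM in aJ1aJ2 and at 12376, 6936 and 12501 CPM in aN1aN2. Tagln was at 10002 ± 2279, 5868 ± 592 and 6857 ± 1742 CPM in the 3 groups (SD, n = 3 each). For both genes every RW sample lay above every treated sample, yet the log2 differences from RW had adjusted p of 0.191 to 0.372 (edgeR). Myh11 and Myl9 overlapped between RW and aN1aN2, at 3306 ± 689.8 against 3136 ± 604 CPM and at 5321 ± 774 against 4566 ± 1401 CPM (SD, n = 3 each).

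For aJ1aJ2 against RW in SM, 0 of 9 genes were called with edgeR and 0 with DESeq2, while 4 had an unadjusted p under 0.05. Of all 1671 genes 18 were called (1.08%) and 16% had an unadjusted p under 0.05. Pdgfrb came closest, at 315, 845 and 523 CPM in RW and 1069, 824 and 1144 CPM in aJ1aJ2. Its highest RW value lay above its lowest aJ1aJ2 value by CPM, and the log2 difference was 1.13 (SE 0.30, adjusted p = 0.0632). Without RW 2, the sample with 5 cells, Pdgfrb (1.28, adjusted p = 0.0373) and Kcnj8 (1.89, adjusted p = 0.0362) were called higher in aJ1aJ2. Rgs5 ranged from 1015 to 10025 CPM among the RW samples, a spread wider than any difference between its group means.

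The pericyte genes' share of the 9 genes' UMIs in SM was 18.5 ± 5.09% in aJ1aJ2 and 17.1 ± 7.35% in aN1aN2 (SD, n = 3 each; exact permutation p = 0.8). It was 15.8, 15.3 and 24.4% in the former and 10.9, 25.2 and 15.2% in the latter, and the groups overlapped. Taken instead as a mean over cells, which weights shallow cells more, the share was 64.0, 56.6 and 61.4% in aJ1aJ2 and 37.5, 55.9 and 54.5% in aN1aN2, without overlap (difference -11.4 percentage points, exact permutation p = 0.1, the smallest possible). In RW it was 4.80, 27.9 and 12.8% summed over cells and 15.1, 43.6 and 48.3% as a mean over cells. The latter values lay below every aJ1aJ2 sample and overlapped aN1aN2, and they were not tested.

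EC3 was the label with the most members called against RW. It held 365 cells with a median of 4624 UMIs, and aJ1aJ2 1, with 17 EC3 cells, was below the minimum of 20 and did not enter its fit. Rgs5 was at 2313, 1540.3 and 1710.3 CPM in RW 1, 2 and 3, at 207 and 155 CPM in aJ1aJ2 3 and 4, and at 54.2, 206 and 126 CPM in aN1aN2 1, 2 and 3. All control samples lay above all treated samples by a wide margin, and the sample left out of the fit, aJ1aJ2 1, at 409 CPM, also lay below them. Rgs5 fell by 3.30 on the log2 scale under ligand blockade (SE 0.33, adjusted p = 0.000262) and by 3.77 under receptor blockade (SE 0.31, adjusted p = 8.96e-06, edgeR). Both contrasts share the RW samples.

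Under ligand blockade Rgs5 was the 1 member called of 6 tested, beside 4 of 6476 genes (0.0618%, with 0.0463% lower). With aJ1aJ2 1 included, at a minimum of 10 cells, the change was -2.84 (adjusted p = 0.0106), and with the range of sample numbers as a term it was -3.35 (adjusted p = 0.000186). Leaving out aJ1aJ2 3, which left 1 ligand-blocked sample assumed to vary like the others, gave -3.52 (adjusted p = 0.0660).

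Under receptor blockade 5 of the 6 members tested fell, beside 383 called genes of 6476 (5.91%), 2.41% being lower. Myl9 was at 341, 211 and 426 CPM in RW and at 7.74, 90.9 and 39.6 CPM in aN1aN2, a log2 change of -2.69 (SE 0.46, adjusted p = 0.00277). Acta2 was at 1010.4, 429.8 and 899.8 CPM against 15.5, 333 and 165 CPM, a change of -2.09 (SE 0.49, adjusted p = 0.0176). For each of the 5 called genes no aN1aN2 sample reached the lowest RW sample, which restates the values the test used. The share of all genes without such overlap was not counted.

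Pdgfrb fell by 1.82 (log2, SE 0.47, adjusted p = 0.0322) and Myh11 by 1.94 (SE 0.51, adjusted p = 0.0358). Tagln did not follow, at 558, 515 and 477 CPM in RW against 696, 273 and 350.2 CPM in aN1aN2, with overlapping groups and a difference of -0.20 (SE 0.30, adjusted p = 0.767). The median over the 6 members was -2.02, against -0.0038 over all genes tested. Cspg4, Kcnj8 and Cnn1 did not pass the filter in EC3. Rgs5 and Myl9 were called in all 13 alternatives in which they passed the filter. Myh11 was called in 4 of 13, its adjusted p without single samples reaching 0.0891. Acta2 and Pdgfrb lost the call without RW 1 (0.0636 and 0.0960) and without aN1aN2 3 (0.0863 and 0.128). Pdgfrb also lost it without aN1aN2 1 (0.115) and with replicate number as a block (0.0805). DESeq2 called none of these 3 (Acta2 0.207, Pdgfrb 0.0653, Myh11 0.335), and a minimum of 10 cells ended the calls of Acta2 (0.0622) and Myh11 (0.0682). Without aN1aN2 2 the changes were larger, at -3.63 for Myl9, -2.99 for Acta2 and -2.44 for Pdgfrb. Myh11 lost it without any 1 of RW 1, RW 3, aJ1aJ2 3, aJ1aJ2 4, aN1aN2 1, aN1aN2 2 or aN1aN2 3 (0.0647 to 0.0891).

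Between the 2 blockades in EC3, 0 of the 6 members were called with edgeR, 3 had an unadjusted p under 0.05, and DESeq2 called 1. Of all 6476 genes 82 were called with edgeR (1.27%) and 13.4% had an unadjusted p under 0.05. Myl9 came closest, at a difference of -2.04 (SE 0.52, adjusted p = 0.0651), and was called without RW 2 (adjusted p = 0.0379) or RW 3 (0.0408).

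Other genes of the mural programme fell with them in EC3 under receptor blockade. Of the other contractile genes 14 of 18 were tested and 7 fell, among them Tpm2, a tropomyosin (log2 change -3.05, SE 0.35, adjusted p = 0.000167), and Des, the muscle intermediate filament desmin (-3.59, SE 0.94, adjusted p = 0.0344). Of the other pericyte genes 13 of 18 were tested and 8 fell, including Ndufa4l2 (-4.52, SE 0.67, adjusted p = 0.00105), Steap4 (-2.89, SE 0.51, adjusted p = 0.00346) and Notch3, the mural Notch receptor (-2.11, SE 0.46, adjusted p = 0.0127). None of either list rose, and 2.41% of all genes tested were lower. The medians were -1.26 and -2.005, against -0.0038 over all genes. Erythroid markers summed to 743 to 1130 CPM in the aN1aN2 EC3 sums and 120 to 306 CPM in RW, endothelial markers to 7751 to 9008 and 5429 to 6925 CPM, and fibroblast markers to 92.8 to 126 and 240 to 1753 CPM, and their part in these results was not tested.

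Of 17 mural signalling genes tested, 3 fell and 2 rose, beside 5.91% of all genes called and 2.41% called lower. Hey1, a Notch target, fell by 1.51 (log2, SE 0.43, adjusted p = 0.0490), Tbx2 fell by 4.48 (SE 1.13, adjusted p = 0.0283) and Nrip2 had 114 UMIs in RW and none in aN1aN2 (adjusted p = 0.0131). Tek, the angiopoietin receptor of endothelium, was higher by 0.79 (SE 0.20, adjusted p = 0.0322) and Edn1, which encodes the vasoconstrictor endothelin 1, by 1.66 (SE 0.41, adjusted p = 0.0257). Under ligand blockade 1 other pericyte gene, Cox4i2, was called, with 104 UMIs in RW and 1 in aJ1aJ2 3 and 4 together.

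**Figure D5:**
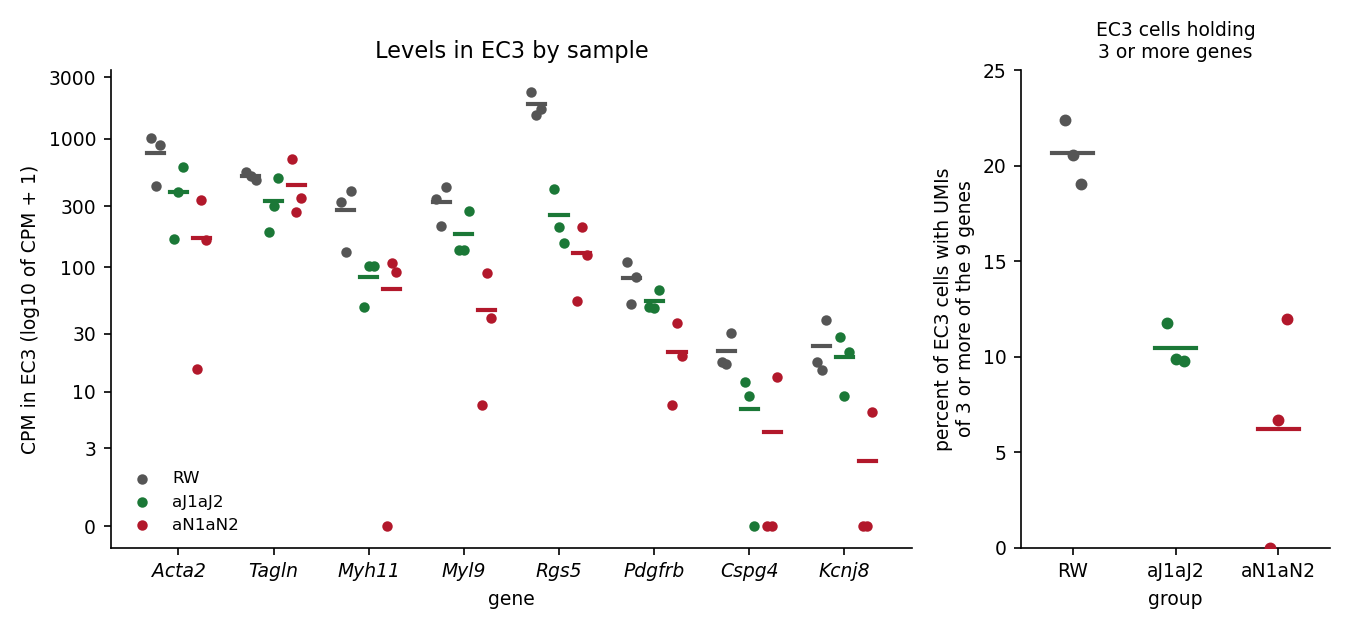
Left, level in EC3 of the 8 genes other than Cnn1 by sample, on an axis of log10(CPM + 1), with points for samples and lines for group means; right, percent of EC3 cells with UMIs of at least 3 of the 9 genes. Rgs5 lies between 1540.3 and 2313 CPM in RW and at or below 409 CPM in every treated sample, and the percent of such cells is 19.0 to 22.4 in RW and 0 to 12.0 in the treated samples.

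These UMIs sat in few cells. Only 47 of the 365 EC3 cells held at least 3 of the 9 genes, but they carried 95.4% of the label's member UMIs and 98.9% of its Rgs5 UMIs. Their median depth was 15327 UMIs per cell, against 4226 in the other EC3 cells, and 42 of the 47 also held at least 6 of the 8 endothelial markers. No doublet caller was run, and whether these droplets held 1 cell or 2 was not tested.

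The cells were unequally spread over the samples. They made up 22.4, 20.6 and 19.0% of EC3 in RW 1, 2 and 3, 11.8, 9.86 and 9.80% in aJ1aJ2 1, 3 and 4, and 0, 6.67 and 12.0% in aN1aN2 1, 2 and 3. Every control sample lay above every treated sample. These shares use the members' own counts and move with depth, so no test was made of them.

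Levels inside these cells, which were chosen by the members' own counts, are a description. Rgs5 in them was at 5839, 3234 and 3908 CPM in RW, at 4859, 739 and 587 CPM in aJ1aJ2 and at 948 and 599 CPM in aN1aN2 2 and 3. The 2 such cells of aJ1aJ2 1 were in the RW range, and the 12 of aJ1aJ2 3 and 4 were not. Acta2 in them was at 2535, 896 and 2054 CPM in RW, at 1972, 1425 and 2446 CPM in aJ1aJ2 and at 1675 and 765 CPM in aN1aN2 2 and 3, and the groups overlapped.

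Removing the 47 cells from the sums took out the members' own UMIs, leaving 12, 9 and 12 of Rgs5 in RW, aJ1aJ2 and aN1aN2, so that Tagln alone passed the filter and the other members could not be tested. In the remaining cells Tagln was at 29.0, 166 and 36.1 CPM in RW, at 8.84, 21.8 and 42.2 CPM in aJ1aJ2 and at 696, 180 and 355 CPM in aN1aN2. All receptor-blocked samples lay above all others. Tagln itself counted in the choice of cells removed, which held 681 of its 744 UMIs in RW and 31 of 188 in aN1aN2, so these values are a description with no test.

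Rgs5 was also followed in the other endothelial labels. In EC1 it was at 67.0, 53.1 and 172 CPM in RW, at 26.1, 37.5 and 39.7 CPM in aJ1aJ2 and at 68.5, 171 and 189.9 CPM in aN1aN2. The ligand-blocked samples were the lowest, and the receptor-blocked ones overlapped RW. Rgs5 was higher in aN1aN2 than in aJ1aJ2 by 1.95 (log2, SE 0.41, adjusted p = 0.00220, edgeR), in all 13 alternatives, beside 1268 of 9369 genes called (13.5%, with 6.95% higher). Endothelial markers summed to 16813 to 20174 CPM in aJ1aJ2 and 14494 to 15102 CPM in aN1aN2, macrophage markers to 29.1 to 49.0 and 5.34 to 12.7 CPM, parathyroid markers to 64.1 to 113 and 228 to 334 CPM, and their part in the result was not tested.

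Against RW it fell by 1.50 under ligand blockade in EC1 (SE 0.36, adjusted p = 0.0389, beside 134 of 9369 genes, 1.43%, with 0.886% lower). That call depended on single samples: without RW 3 the change was -0.76 (adjusted p = 0.191), and without aJ1aJ2 3, aJ1aJ2 4, aN1aN2 2 or aN1aN2 3 the adjusted p was 0.177, 0.168, 0.0541 and 0.0615. DESeq2 gave 0.235, while with the range of sample numbers as a term it was 0.0399. Under receptor blockade 0 of the 2 members tested in EC1 (Rgs5 and Myl9) were called with edgeR, with DESeq2 or at an unadjusted p under 0.05, against 17.8% of all genes called and 29.8% at that unadjusted threshold. Without RW 3 both were called higher, Rgs5 by 1.17 (adjusted p = 0.00430) and Myl9 by 1.97 (0.0371). Of the Rgs5 UMIs in EC1, 287 of 561 in RW and 29 of 154 in aN1aN2 lay in the 21 cells that held at least 3 members. Macrophage markers in EC1 summed to 92.7 to 243 CPM in RW, above both treated groups, and their part in these results was not tested.

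In EC2, RW 3 and aJ1aJ2 1 had 15 and 16 cells and did not enter the fit, which left 7 samples. Rgs5 was at 1718 and 557 CPM in RW, at 1719.8 and 1550.0 CPM in aJ1aJ2 and at 3681, 947 and 6035 CPM in aN1aN2. The groups overlapped, and Rgs5 did not pass the test in any contrast (log2 0.51 to 1.56, adjusted p = 0.0558 to 0.691). Against RW, Rgs5 was called higher in aN1aN2 without any 1 of RW 1, aJ1aJ2 3, aJ1aJ2 4 or aN1aN2 2 (log2 1.50 to 2.59, adjusted p = 0.000619 to 0.00836), and against aJ1aJ2 without aN1aN2 2 (1.50, adjusted p = 0.0138). Of the 6 members tested, Tagln and Myl9 were higher under receptor blockade than in RW, beside 388 of 2508 genes (15.5%, with 8.85% higher).

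Tagln in EC2 was at 80.7 and 17.1 CPM in RW, at 100.2 and 52.2 CPM in aJ1aJ2 and at 397, 36.4 and 545 CPM in aN1aN2. aN1aN2 2 lay among the other groups, so that the groups overlapped. The difference was 2.40 against RW (SE 0.70, adjusted p = 0.0303) and 2.00 against aJ1aJ2 (SE 0.58, adjusted p = 0.0365, beside 264 of 2508 genes, 10.5%, with 5.78% higher). Myl9 was higher than in RW by 1.70 (SE 0.55, adjusted p = 0.0499). None of these 3 calls held without aN1aN2 1 (adjusted p = 0.167, 0.223 and 0.292 for Tagln against RW, Tagln against aJ1aJ2 and Myl9) or without aN1aN2 3 (0.118, 0.165 and 0.157), and the 2 against RW were also lost without RW 2 (0.0721 and 0.159). Without RW 1 the changes against RW were 4.07 for Tagln and 3.30 for Myl9. DESeq2 did not call Tagln (0.182 and 0.454), and a minimum of 10 cells ended its calls (0.305 and 0.0935), with a change of 1.215 against RW. Myl9 lost its call at that minimum (0.0585) and with DESeq2's size factors (0.0503). Markers of other cells moved too, from 110 to 916 CPM of skeletal muscle markers in RW to 966 to 1577 CPM in aN1aN2 and from 645 to 789 to 859 to 1577 CPM of thyrocyte markers, and their part in the result was not tested.

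For ligand blockade in EC2, 0 of 6 members were called with edgeR or DESeq2 and 1, Myl9, had an unadjusted p under 0.05. Of all 2508 genes 48 were called (1.91%) and 16.2% had an unadjusted p under 0.05. Myl9 was called higher without aN1aN2 2 (log2 1.60, adjusted p = 0.0237). The 52 EC2 cells with at least 3 members carried 84.4% of the label's member UMIs, and without them Rgs5 alone passed the filter in EC2 and was not called (adjusted p = 0.556 to 0.823). In EC4, where Rgs5 was at 50.4 CPM, 0 of 9 members passed the filter. Without the filter 7 were tested in EC4 with edgeR and the lowest adjusted p in any contrast was 0.0790, for Tagln in aN1aN2 against RW (log2 2.58).

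The members' changes in EC3 were tested against those in EC1 (6 members) and EC2 (7 members) in 1 fit with the sample as a block, an analysis added after seeing the data, and only Rgs5 and Myl9 passed. Under receptor blockade the log2 change of Rgs5 in EC3 minus that in EC1 was -4.46 (SE 0.41, adjusted p = 1.36e-06) and minus that in EC2 was -5.33 (SE 0.65, adjusted p = 0.000346, edgeR). For Myl9 the gaps were -3.70 (SE 0.74, adjusted p = 0.00605) and -4.25 (SE 0.82, adjusted p = 0.0152). Calls made up 2.39% of 7975 genes against EC1 and 1.09% of 4786 genes against EC2. Under ligand blockade the gap for Rgs5 was -4.09 against EC2 (SE 0.65, adjusted p = 0.0222, beside 0.0836% of genes), and against EC1 it was -2.06 (SE 0.41, adjusted p = 0.0979, with no gene called).

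The label that held most Rgs5 UMIs differed between the groups. In RW, EC3 held 52.8% and SM 19.3% of them, whereas in aN1aN2 EC2 held 42.2%, SM 41.7% and EC3 3.47%. In aJ1aJ2, EC2 held 50.6% and EC3 8.35%. For Acta2 the SM share of UMIs was 75.6% in RW, 81.4% in aJ1aJ2 and 92.9% in aN1aN2. These shares depend on how many cells of each label were captured.

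In F, Pdgfrb was at 141, 155 and 131 CPM in RW, at 128, 138 and 118 CPM in aJ1aJ2 and at 113, 96.6 and 93.4 CPM in aN1aN2. Receptor-blocked samples were the lowest, without passing the test (log2 -0.46 against RW, SE 0.23, adjusted p = 0.176). Myl9 was at 66.7, 69.4 and 61.0 CPM in RW, at 53.8, 38.9 and 34.8 CPM in aJ1aJ2 and at 11.3, 24.1 and 18.7 CPM in aN1aN2. The 3 groups did not overlap. Myl9 fell by 1.85 under receptor blockade (log2, SE 0.43, adjusted p = 0.00463, edgeR), 1 of 3 members tested, beside 958 of 4840 genes (19.8%, with 10.6% lower). The call rested on few counts, with 8 Myl9 UMIs in aN1aN2. RW had 42 in cells holding fewer than 3 members and 21 in the other cells.

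Kcnj8 in F was at 52.7, 34.7 and 74.1 CPM in RW, at 146, 65.3 and 92.4 CPM in aJ1aJ2 and at 11.3, 30.2 and 56.0 CPM in aN1aN2. Ligand-blocked samples all lay above receptor-blocked ones, and RW overlapped both. Between the 2 blockades it differed by -1.71 (log2, SE 0.48, adjusted p = 0.0196, beside 775 of 4840 genes, 16%, with 8.35% lower), the direction seen in SM. The call rested on 13 Kcnj8 UMIs in aN1aN2 and was lost without aJ1aJ2 1 (0.0502), aN1aN2 1 (0.147) or aN1aN2 2 (0.0795). Under ligand blockade 0 of 3 members were called in F with edgeR or DESeq2, 2 having an unadjusted p under 0.05, against 0.579% of all genes called and 8.53% at that unadjusted threshold.

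Without the 33 F cells that held at least 3 members, the Myl9 change was -1.46 (adjusted p = 0.0547). Of the other pericyte genes 7 were tested in F under receptor blockade, and Cd248, a fibroblast and pericyte surface protein, fell by 4.36 (SE 0.35, adjusted p = 8.60e-08), with Ndufa4l2 and Postn also lower and P2ry14 higher. Erythroid markers summed to 851 to 43673 CPM in the aN1aN2 F sums, against 109 to 296 CPM in RW, and their part in these results was not tested.

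Over all cells summed, all 9 members passed the filter. Pdgfrb was at 17.3, 15.1 and 17.9 CPM in RW, at 34.1, 24.4 and 40.6 CPM in aJ1aJ2 and at 19.1, 24.7 and 25.2 CPM in aN1aN2. Every treated sample lay above every control sample. It rose by 0.72 under receptor blockade (log2, SE 0.22, adjusted p = 0.0497, edgeR), the only call beside 2382 of 14382 genes (16.6%, with 9.04% higher). This call sat at the threshold and was kept in 3 of 13 alternatives, being lost without any 1 of RW 1, RW 2, RW 3, aJ1aJ2 1, aN1aN2 1, aN1aN2 2 or aN1aN2 3 (adjusted p = 0.0559 to 0.150). Sums over all cells move with the number of mural cells as well as with RNA per cell. SM held 25.7, 43.5 and 61.9% of Pdgfrb UMIs in RW, aJ1aJ2 and aN1aN2. The mean SM share of cells was 1.32, 2.96 and 3.53%, and its part in the result was not tested.

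Under ligand blockade the differences in all cells were 0.93 for Pdgfrb (SE 0.21, adjusted p = 0.264) and 1.32 for Kcnj8 (SE 0.37, adjusted p = 0.476). No member was called there with edgeR, 2 had an unadjusted p under 0.05, and DESeq2 called Pdgfrb. Of all 14382 genes 4 were called with edgeR (0.0278%) and 6.5% had an unadjusted p under 0.05. Between the blockades no member was called with either tool, 2 having an unadjusted p under 0.05, against 9.94% of all genes called and 28% at that unadjusted threshold. Without aN1aN2 3 Kcnj8 was called lower in aN1aN2 (log2 -1.57, adjusted p = 0.0475), and without RW 2 Myh11 was called higher (0.92, adjusted p = 0.0219). Acta2 was at 187 ± 117, 136 ± 8.44 and 201 ± 71.9 CPM in RW, aJ1aJ2 and aN1aN2 (SD, n = 3 each), and did not pass the test in any contrast.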

How the data were processed

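Single-cell RNA of pooled mouse thyroids was counted on the 10x 3' platform. The authors deposited 1 table of UMI counts per gene and cell with their cell labels; per the submitters' processing notes Cell Ranger and GRCm38 were used, and the Cell Ranger version and how cells were filtered and labelled are not given in the sources used here. All 63121420 UMIs, 3013324 to 11880793 per sample, were whole numbers. Symbols were found for 52403 of 52636 identifiers, and identifiers without one held 0.0293% of UMIs. The members and gene lists were chosen with earlier results of these data known.

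Counts were summed per sample within a label (at least 10 cells for SM, 20 for other labels, 5 for SM against RW), and tested over all genes in 1 fit of the 3 groups with edgeR 4.0.16 (filterByExpr, TMM, quasi-likelihood test, Benjamini-Hochberg, threshold 0.05) in R 4.3.3. P-values measure the spread between pools of animals. Per-sample levels are CPM without TMM, so they can differ slightly in ratio from the fitted change. Alternatives were DESeq2 1.42.0, its size factors, no filter on low counts, other minimum cell numbers, each sample left out and a replicate block. Terms for the range of sample numbers, sums without cells holding 3 or more of the 9 genes, and the test of changes between labels were chosen after seeing the data. Shares of cells were compared by exact two-sided permutation tests (scipy 1.17.1), and shares of SM cells by exact 95% intervals, which cover counting error only, as do the upper limits (3 counts) given for a count of 0. Named genes were the 9 members, and up to 5 genes each way by size from each other list among those called. Tested on simulated data for aJ1aJ2 against RW, the fit recovered 89% of 4-fold and 13% of 2-fold changes in EC1 (9340 genes), and 56% and 2% in EC3 (6685 genes). The simulated counts had the same dispersion for every gene and were filtered anew, so the gene numbers differ from those of the real fits. Changes were placed only in genes with higher counts. SM was not simulated, and the rates need not hold for the 9 genes. No doublet caller was run.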

Additional observations from a re-analysis of the deposited data

Results flagged for a closer look

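Of 6 members tested between EC3 and EC1 and 7 between EC3 and EC2, the response of 2 differed between endothelial labels under the same antibody, by a test of the difference itself (edgeR's quasi-likelihood test with the sample as a block, Benjamini-Hochberg adjustment over all genes, chosen after seeing the data). For receptor blockade against RW, the log2 change in EC3 minus that in EC1 was -4.46 for Rgs5 and -3.70 for Myl9, and the change in EC3 minus that in EC2 was -5.33 for Rgs5 and -4.25 for Myl9. For ligand blockade against RW, the change in EC3 minus that in EC2 was -4.09 for Rgs5. The EC2 tests rest on 7 samples and the EC1 tests on 8. Most of the Rgs5 UMIs in EC3 (98.9%) lay in the 47 cells with at least 3 of the 9 genes, and what those cells contribute to the difference was not tested.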

How the results depend on the processing

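Counts of called members moved as follows. The share of all genes called under each setting is not given here, nor for the fits that leave out 1 sample. The counts therefore show how the calls move and are no result about the members. With DESeq2 they were 0 for SM aN1aN2 against aJ1aJ2, 0 for EC1 aJ1aJ2 against RW, 1 for EC2 aN1aN2 against RW, 0 for EC2 aN1aN2 against aJ1aJ2, 2 for EC3 aN1aN2 against RW, 1 for EC3 aN1aN2 against aJ1aJ2 and 1 for all cells aJ1aJ2 against RW. With DESeq2's size factors they were 1 for EC2 and 0 for all cells, both aN1aN2 against RW. Without the filter on low counts they were 2 for aJ1aJ2 against RW in each of EC2, EC3 and F, and for aN1aN2 against RW 5 in EC2, 2 in F and 0 in all cells, and for aN1aN2 against aJ1aJ2 2 in EC2 and 2 in EC3. A minimum of 5 cells gave 0 for SM aN1aN2 against aJ1aJ2, and a minimum of 10 cells gave, for aN1aN2, 1 in EC2 and 3 in EC3 against RW and 0 in EC2 against aJ1aJ2. Without cells holding 3 or more members they were 0 for aJ1aJ2 against RW in EC1 and EC3, and for aN1aN2 against RW 1 in EC1, 0 in EC2, 1 in EC3 and 0 in F, and against aJ1aJ2 0 in EC2 and 1 in EC3; there the filter left only Rgs5 to test in EC2 and only Tagln in EC3, and the cells were removed for holding the members, so these counts support nothing.

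Replicate numbers are shared only by number: deviations of RW 1 with aN1aN2 1 correlated at 0.0397 and of RW 2 with aN1aN2 2 at -0.193 across 14382 genes. With the replicate block, aN1aN2 against RW gave 0 calls in SM, 1 in EC1 and 0 in all cells. The SM share differed by 2.90 and the share of cells with at least 3 members by 1.46 percentage points over the pairs numbered 1 and 2.

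Leaving out 1 sample at a time, the counts ranged 0 to 2 in SM for aN1aN2 against aJ1aJ2, 0 to 2 and 0 to 1 in SM for aJ1aJ2 and aN1aN2 against RW, and, for aJ1aJ2 against RW, aN1aN2 against RW and aN1aN2 against aJ1aJ2 in turn, 0 to 1, 0 to 2 and 1 to 1 in EC1, 0 to 1, 0 to 5 and 0 to 2 in EC2, 0 to 1, 2 to 5 and 0 to 1 in EC3, and 0 to 0, 0 to 1 and 0 to 1 in all cells. In F the last ranged 0 to 1. The difference in SM share ranged 1.16 to 2.44, 1.74 to 3.02 and 0.0718 to 1.02 percentage points, that in cells of any label with at least 3 members 0.327 to 2.22, -0.248 to 1.65 and -1.10 to -0.0683, and that in the pericyte share of SM -5.50 to 1.66. Thinned to 500 UMIs, the aN1aN2 minus aJ1aJ2 difference in cells with at least 3 members was 0.696, against -0.575 at full depth. The pericyte share as a mean over cells differed by -11.4, against -1.44. The cause of these moves was not tested. In the values of the report, Cnn1 and Cspg4 passed the filter on low counts only in SM and all cells.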
